A study of Mus musculus with 72 samples.

Results

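Nppa, Nppb, Myh6, Myh7, Acta1 and Ankrd1, markers of cardiac hypertrophy and of the fetal gene program, were followed through 72 RNA-seq libraries of adult mouse heart. They were chosen by name and are 6 of the 24237 gene identifiers in the count table. All mice were C57BL/6J, and each heart had been divided under the microscope into its right atrium, its left atrium and the ventricles. The study asked whether disruption of signaling by the aryl hydrocarbon receptor (AHR, a ligand-activated transcription factor) during gestation leaves changes in the adult heart. The 4 groups were naïve Ahr+/+ mice, from vehicle-treated dams, Ahr-/- mice, and Ahr+/+ mice exposed in utero to low- or high-dose TCDD, a dioxin that activates the receptor. The Ahr-/- mice came from untreated dams, carry the deletion in all cells and had been crossed into C57BL/6J for 7 generations. Pregnant dams received 0.1 or 1 μg/kg by gavage, once on each of 3 gestational days, and the labels code these doses as 100 and 1000 with no unit. By the labels the first gavage fell on day 13.5 of gestation, with others on day 15.5 and day 18.5, and tissue was taken at 9 months, whereas the written methods place gavage earlier and tissue collection at 10 months. The labels also name TCDD as the treatment of all 72 libraries, so the groups were read from the titles. Each group held 3 libraries per sex and compartment, numbered 1 to 72 in the labels. Methods state 3 mice per sex and group, but the labels do not tie a library to a mouse, so p-values measure the spread between these libraries.

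The hypertrophied or overloaded heart re-expresses genes of the fetal ventricle, and this set of genes is the usual readout of that response. Nppa and Nppb encode atrial and B-type natriuretic peptide, hormones that the heart secretes when its wall is stretched and that lower blood volume and pressure. Myh6 and Myh7 encode the fast α- and the slow β-myosin heavy chain of the sarcomere; adult mouse heart uses α, fetal and stressed ventricle more β. Acta1 encodes skeletal α-actin, which is present in fetal and stressed heart beside cardiac α-actin. Ankrd1 encodes CARP, an ankyrin-repeat protein of the sarcomere and nucleus that responds to stretch.

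The natriuretic peptide genes are neighbours on chromosome 4 of GRCm38 in the GENCODE annotation, Nppb (Entrez 18158) at chr4:147985788-147987205 and Nppa (Entrez 230899) at chr4:148000722-148002079, with 13516 bases between them. The myosin genes are likewise neighbours on the minus strand of chromosome 14, Myh6 (Entrez 17888) at chr14:54941921-54966927 and Myh7 (Entrez 140781) at chr14:54970684-54994626, with 3756 bases between them. Acta1 (Entrez 11459) lies at chr8:123891769-123894751 and Ankrd1 (Entrez 107765) at chr19:36111961-36120099, both on the minus strand. Reads of 50 bases were counted on coding regions. Of the 50-base windows in the Myh7 coding sequence, 23.9% occur unchanged in that of Myh6, and 53.9% do with up to 2 mismatches. Part of the reads of these genes therefore cannot be assigned to one of them from sequence alone. How such reads were counted is not given in the sources used here. No window of Acta1 occurs unchanged in Actc1, the gene of cardiac α-actin, and 4.07% do with up to 2 mismatches.

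The 250 bases before the RefSeq start are shown for Nppa, which had the widest span of levels over the libraries, and for Acta1, which had the most unadjusted p-values under 0.05 in the comparisons of males. Capitals mark letters that match 3 motifs of factors known to act on this program, on either strand. The motif of GATA zinc-finger factors was searched as TGATAA. A second form of it, searched in the same windows, was AGATAA. The letters CATTCC are the MCAT element, bound by TEAD factors, and the CArG box is bound by SRF. The NK2 element AAGTG was searched too and is left in lower case, with 2 matches in the Nppa window and with 46.4% of all windows holding one. The capital stretches do not overlap each other. The Nppa sequence lies on the plus strand at chr4:148000472-148000721 and that of Acta1 on the minus strand at chr8:123894776-123895025, both GRCm38.p6.
Nppa: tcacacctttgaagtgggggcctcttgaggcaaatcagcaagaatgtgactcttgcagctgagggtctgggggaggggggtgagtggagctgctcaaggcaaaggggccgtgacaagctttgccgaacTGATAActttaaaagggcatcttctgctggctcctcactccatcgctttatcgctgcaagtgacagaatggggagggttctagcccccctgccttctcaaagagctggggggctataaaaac
Acta1: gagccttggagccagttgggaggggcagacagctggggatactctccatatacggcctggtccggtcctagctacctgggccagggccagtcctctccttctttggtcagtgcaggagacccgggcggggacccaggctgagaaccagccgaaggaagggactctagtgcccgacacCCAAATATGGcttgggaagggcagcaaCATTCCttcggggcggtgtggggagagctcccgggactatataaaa

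The Nppa window held 1 GATA match and no MCAT element, and the Acta1 window held a CArG box and an MCAT element close to each other. Of 32851 RefSeq promoter windows of 300 bases, 18.6% held a GATA match, 14.7% an MCAT element and 1.63% a CArG box. MCAT matches were found for 5 of the 6 genes. They are shown with 10 bases on each side because this was the element held by most of the genes, and are written so that CATTCC, in capitals, reads 5′ to 3′. The Acta1 match reads so on the strand of its gene and the others on the opposite strand.
Nppb, chr4:147985785-147985810: ttatcagctgCATTCCtgccggctga
Ankrd1, chr19:36120039-36120064: gtgagagggtCATTCCtttggcagtg
Ankrd1, chr19:36119952-36119977: ggtgaattttCATTCCagacttagtg
Acta1, chr8:123894806-123894831: agggcagcaaCATTCCttcggggcgg
Myh6, chr14:54966798-54966823: tccttgggcaCATTCCtcctccccaa
Myh7, chr14:54994812-54994837: atatctctaaCATTCCacggctcact

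The Myh7 match was in 1 of its 2 annotated start windows. The core of the AHR response element was searched as TNGCGTG, with N for any base. It was in 5.07% of all windows and in 0 of the windows of these 6 genes. A match is a stretch of letters and was not tested as a binding site.

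Libraries held 11873417 to 28789382 counts, so that a count of 0 would allow at most 0.104 to 0.253 CPM, counts scaled to a library total of 1000000, from counting error only. All 6 genes were counted in every library, the least being 44 reads of Nppb. Ahr itself, the deleted gene, had 8.59 to 30.8 CPM in the 18 naïve libraries and 2.00 to 9.23 CPM in the 18 Ahr-/- libraries. In 17 libraries marker genes went against the label. Sex-linked genes read as the other sex in 8, the atrial light chain gene Myl4 was at 48.7 CPM or less in 8 of 48 labelled atrium (at least 621 CPM in the other 40), and it was at 675 to 3533 CPM in 5 of 24 labelled ventricle (at most 193 CPM in the other 19). These libraries are number 4, 11, 23, 24, 46, 50, 51, 53, 56, 57, 59, 62, 63, 65, 68, 69 and 71, and 12 of the 17 are among the 24 libraries numbered 49 to 72. Those 12 carry the same labels in each of the 4 groups. Libraries 50, 56, 62 and 68, labelled female right atrium, read as male. Libraries 51, 57, 63 and 69, labelled male left atrium, had little Myl4. Libraries 53, 59, 65 and 71, labelled male ventricle, read as female and had high Myl4. Values are given by label, and the compartment contrasts are also given without the 17 libraries. In the comparisons with naïve, they were left out in fits of all 4 groups of a compartment and sex. In female right atria this left only library 3 among naïve and only library 12 among high-dose libraries. Only library 58 was left in Ahr-/- female left atria, and only library 45 in low-dose male ventricles. Comparisons that use these groups cannot be checked in this way, for want of replicates. The remaining comparisons gave no call of any of the 6 genes. Female ventricles held none of the 17 libraries, so nothing was left out there, and the fit of all 4 groups itself gave no call. The labels name cardiomyocytes as cell type, but markers of fibroblasts, endothelium and smooth muscle were present, so that fewer cells of a type and less RNA per cell cannot be told apart.

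Per base of coding sequence, Nppa had the highest median of the 6 genes in naïve atria and Myh6 in naïve ventricles. In CPM per kilobase and leaving out libraries against their labels, the medians in the right atrium (4 libraries) were 25291 for Nppa, 4071 for Myh6, 2503 for Ankrd1, 1192 for Myh7, 617 for Nppb and 41.5 for Acta1. In the ventricles (5 libraries) they were 3434 for Myh6, 1248 for Ankrd1, 1136 for Myh7, 269 for Nppb, 182 for Nppa and 42.1 for Acta1. In the ventricles the ranges of Myh6, Ankrd1 and Myh7 overlapped each other. Those of Nppb and Nppa overlapped each other and also the ranges of Ankrd1 and Myh7. In the right atrium Nppa lay above the range of every other gene, while Myh6 overlapped Ankrd1 and Myh7 overlapped Nppb. In the left atrium (5 libraries) the order of medians was that of the right atrium. Nppa was at 14548 there, with a range that overlapped those of Myh6 and Ankrd1. The widest span over the 72 libraries was that of Nppa, 771-fold from 27.0 to 20789 CPM, and the narrowest that of Myh6, 4.08-fold from 9444 to 38491 CPM.

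**Figure D1:**
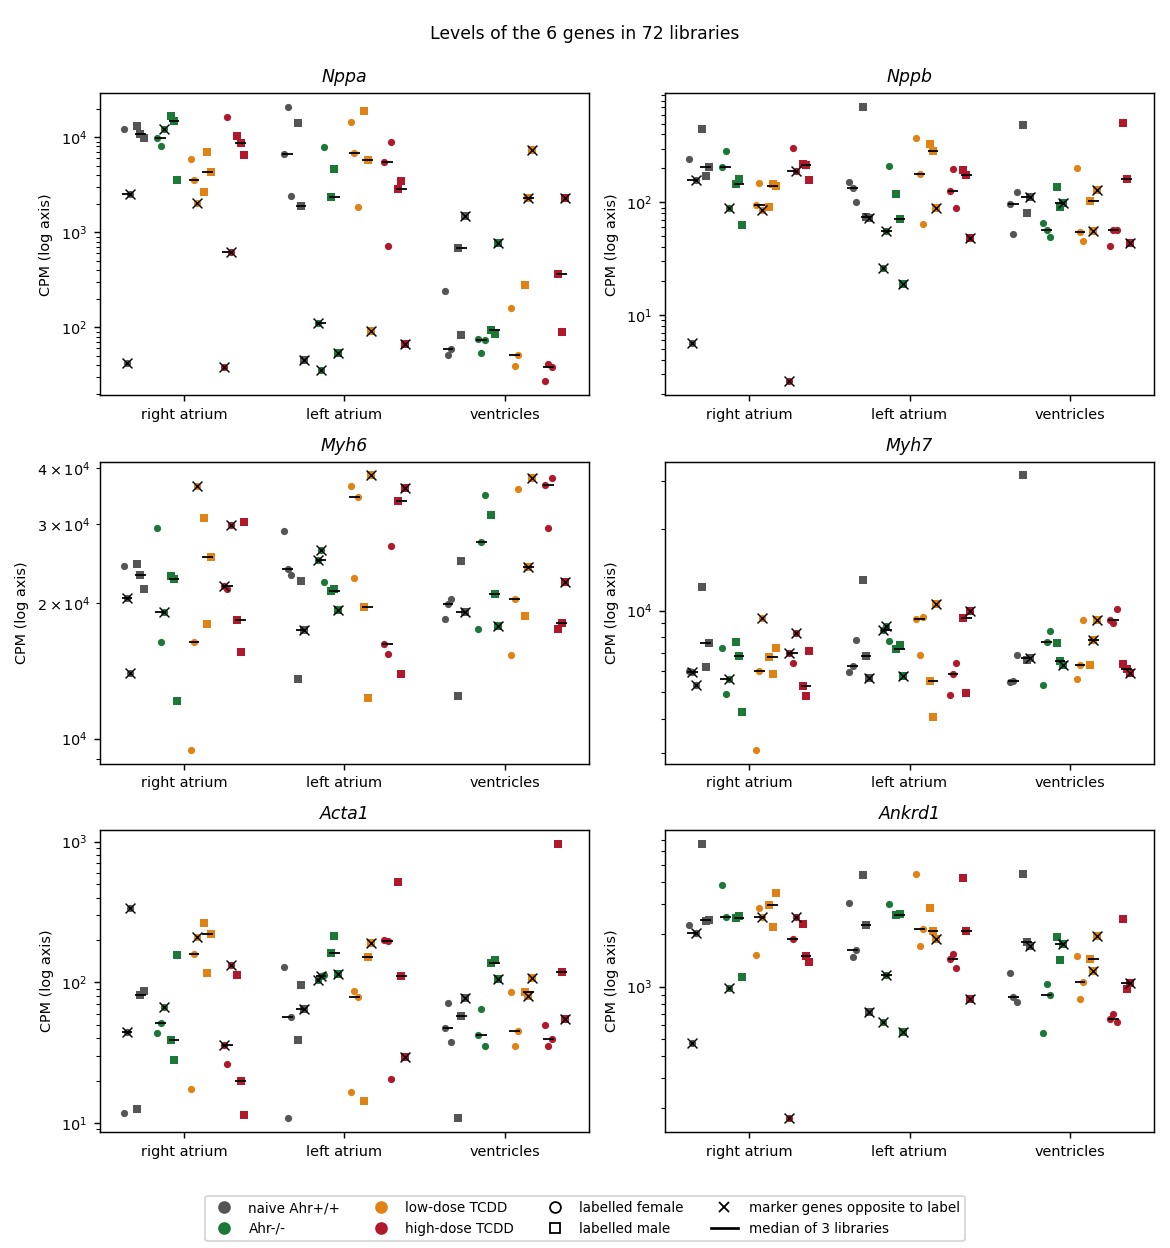
Level of each of the 6 genes in every library, in CPM on a log axis, by labelled compartment, group (colour) and sex (circles female, squares male); short lines are medians of 3 libraries and crosses mark the 17 libraries with marker genes against their label. Nppa separates atria from ventricles apart from some crossed libraries, Myh6 and Myh7 stay within narrow bands, and single naïve or high-dose male libraries stand out for Myh7, Ankrd1 and Acta1.

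Nppa, the gene of atrial natriuretic peptide, had the widest difference of the 6 between compartments of the naïve heart, although it did not pass the test with all libraries included. Its naïve right atrial libraries held 13264, 10905 and 9739 CPM in males and 12160, 42.3 and 2557 CPM in females. Naïve left atria held 14257, 1869 and 45.6 CPM in males and 6634, 20789 and 2380 CPM in females. Ventricles held 683, 83.2 and 1466 CPM in males and 244, 51.3 and 59.6 CPM in females. The atrial values below 100 CPM are those of libraries 4 and 51 and the ventricular value above 1000 CPM is that of library 53, all among the libraries with Myl4 against their label. In one fit of the 18 naïve libraries with sex as a term, Nppa was 4.30 (SE 1.27) higher on the log2 scale in the right atrium than in the ventricles (adjusted p = 0.146 after Benjamini-Hochberg correction over all genes, edgeR's quasi-likelihood F-test) and 4.56 (SE 1.35) higher in the left atrium (edgeR adjusted p = 0.398). Neither passed 0.05, and 1 of 14893 genes (0.00671%) was called for the right atrium and 0% for the left. Without the libraries against their labels the differences were 5.41 (edgeR adjusted p = 0.00237) and 5.32 (edgeR adjusted p = 0.00362). Leaving libraries out by Myl4, which ran with Nppa over the 72 libraries (Pearson's r 0.944), removed the 2 lowest atrial values and the highest ventricular value of Nppa among naïve libraries, so these p-values follow in part from that choice. The share of all genes called in that setting is not given. With all libraries DESeq2 gave 4.28 (adjusted p = 0.00435) and 4.54 (adjusted p = 0.0190).

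Over all 72 libraries the level of Nppa went with Myl4, the marker used to check the label. The 40 libraries labelled atrium with Myl4 over 200 CPM had Nppa at 625.5 to 20789 CPM, with a median of 6711. The 8 labelled atrium with little Myl4 had 35.3 to 110 CPM, inside the 27.0 to 683 CPM of the 19 ventricular libraries with little Myl4. The 5 labelled ventricle with Myl4 over 200 CPM had 772 to 7261 CPM, above every one of those 19. For the other 5 genes the ranges of the 40 and the 8 atrial libraries overlapped. Myh6 had medians of 22351, 23391, 22252 and 20480 CPM in these sets of 40, 8, 5 and 19 libraries, and Ankrd1 had 2343, 669, 1707 and 1032 CPM.

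**Figure D2:**
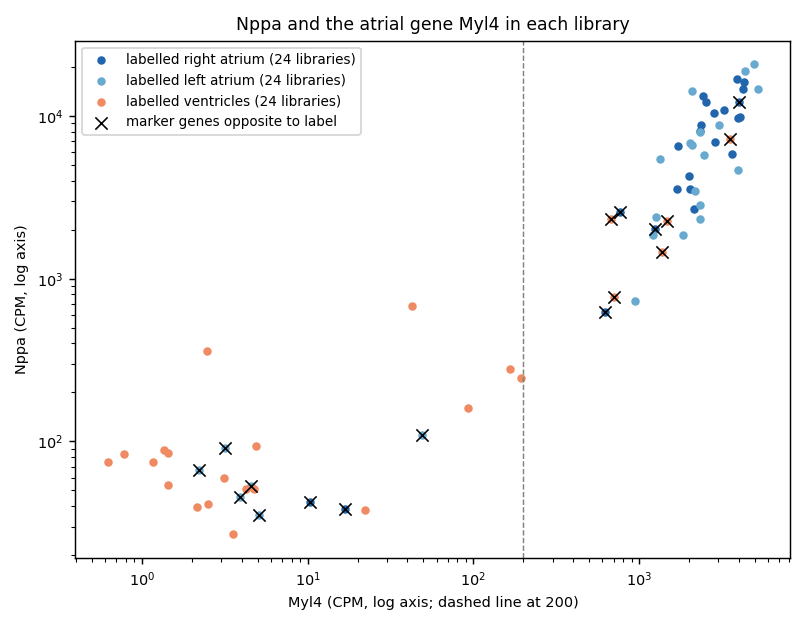
Nppa against the atrial gene Myl4, both in CPM on log axes, 1 point per library coloured by labelled compartment, with crosses on libraries whose marker genes go against the label. Crossed atrial points at low Myl4 fall among the ventricles at 35.3 to 110 CPM of Nppa, and crossed ventricular points at high Myl4 lie at 772 to 7261 CPM.

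The other 5 genes differed less between naïve compartments. Against the ventricles, right atrial log2 differences ran from -0.58 for Myh7 to 0.83 for Acta1, and left atrial ones from -0.48 for Myh7 to 0.35 for Ankrd1. No member was called in any of the 3 contrasts by edgeR. Between left and right atrium 0 genes (0%) were called, no member had an unadjusted p under 0.05, and the 6 differences lay between -0.49 for Acta1 and 0.26 for Nppa. An unadjusted p under 0.05 was reached by Nppa alone, in both contrasts with the ventricles, where 19.2% of all genes reached it for the right and 11.8% for the left atrium. DESeq2 called Nppa in the same contrasts and no other member, and 3.14% and 0.248% of all genes.

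To ask what the deletion or the exposure left in the adult heart, 3 libraries of a group were set against the 3 naïve libraries of the same sex and compartment, which gave 18 comparisons. Of 108 tests of the 6 genes, 2 passed an adjusted p of 0.05 in edgeR, corrected over all genes, Myh6 and Myh7 in high-dose female ventricles. An unadjusted p under 0.05 was reached in 12 of the 108 (11.1%), where 9.68% of all gene tests reached it, so that the share among these genes was near that of genes at large. The shares of all genes called at an adjusted p of 0.05 were 0% in each comparison of the right atrium, in each of the left atrium and in males in each of the ventricles. In the ventricles of females they were 0.0216% for Ahr-/-, 0% for low-dose and 23.7% for high-dose TCDD. DESeq2 called 4 of the 108, which were Myh6, Myh7 and Ankrd1 in high-dose female ventricles (26.7% of all genes) and Nppa in low-dose male right atria (0.0781%). Comparisons of a sex and compartment share their 3 naïve libraries, so their values are not independent of each other.

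**Figure D3:**
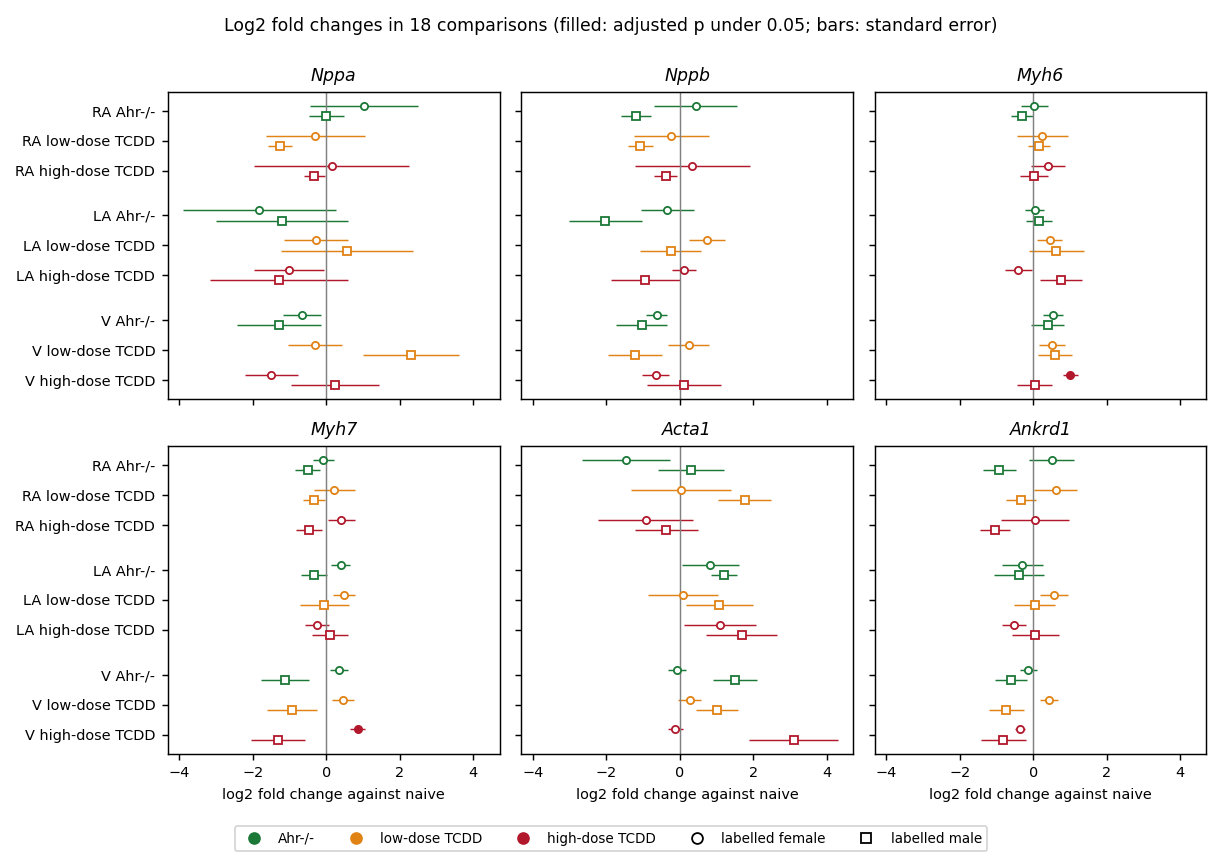
Log2 fold change against the naïve group of the same sex and compartment for each of the 6 genes in 18 comparisons, with standard errors as bars and filled symbols for an adjusted p under 0.05. The 2 filled symbols are Myh6 and Myh7 in high-dose female ventricles, and the longest bars belong to Nppa in groups that hold libraries against their label.

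Both myosin heavy chain genes rose in female ventricles after high-dose TCDD in utero, Myh6 to 34685 ± 4613 CPM from 19600 ± 1032 CPM and Myh7 to 9451 ± 609 CPM from 5941 ± 779 CPM (mean ± SD, n = 3 in each group). Myh6 was read at 18436, 19963 and 20402 CPM in the naïve libraries and at 36697, 29407 and 37950 CPM in the high-dose libraries. The groups did not overlap, and the log2 fold change was 1.01 (SE 0.203, edgeR adjusted p = 0.00433). Myh7 was read at 5473, 5509 and 6841 CPM in naïve libraries and at 9240, 8976 and 10138 CPM in high-dose libraries. These groups did not overlap either, and the log2 fold change was 0.85 (SE 0.194, edgeR adjusted p = 0.00827). Low-dose female ventricles reached from the naïve range or below it into the high-dose range, for Myh6 with 15354, 20480 and 35851 CPM, and for Myh7, with 5627, 6317 and 9233 CPM, and neither was called there (log2 fold changes 0.51 and 0.45, adjusted p 0.475 and 0.446). In Ahr-/- female ventricles the log2 fold changes were 0.53 and 0.35, and edgeR gave adjusted p-values of 0.529 and 0.611.

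The calls in high-dose females held with each of the 6 libraries left out, with adjusted p-values up to 0.0263 for Myh6 and 0.0485 for Myh7, and within libraries 49 to 72, 1 against 1, the log2 ratios were 0.89 and 0.57. With all 4 female ventricle groups in one fit the fold changes were 1.01 and 0.85 but the adjusted p-values were 0.0994 and 0.0857, and with both sexes in one fit they were 0.53 and -0.23 and neither gene was called. With 23.7% of all genes called in this comparison, 2 of 6 is not a count that sets these genes apart. The balance of the chains overlapped between the groups, since Myh7 made up 20.1%, 23.4% and 21.1% of Myh6 plus Myh7 counts in the high-dose libraries and 22.9%, 21.6% and 25.1% in the naïve ones. The part of reads shared by both coding sequences in this balance and in both rises was not tested.

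The other 4 genes gave no call in high-dose female ventricles. Ankrd1 was read at 1194, 871 and 819 CPM in naïve and 655, 697 and 624 CPM in high-dose libraries, without overlap, at a log2 fold change of -0.36 (SE 0.138, unadjusted p = 0.0221, edgeR adjusted p = 0.0775). DESeq2 and scaling by library size alone called it, with adjusted p-values of 0.0334 and 0.0415, and without the naïve library 35 it was -0.24. Nppa was read at 244, 51.3 and 59.6 CPM in naïve and at 27.0, 41.5 and 38.2 CPM in high-dose libraries, again without overlap, at -1.50 (SE 0.714, edgeR adjusted p = 0.215). Its highest value is that of library 35, where Myl4 was at 193 CPM; without that library the log2 fold change was -0.52 (edgeR adjusted p = 0.145). The groups overlapped for Acta1 (log2 fold change -0.13, edgeR adjusted p = 0.688) and for Nppb, at 97.7, 53.0 and 125 CPM in naïve and 41.4, 57.4 and 57.0 CPM in high-dose libraries (-0.66, edgeR adjusted p = 0.240). Nppb was -0.27 without the naïve library 54, and it passed the threshold without the naïve library 36 (-0.95, edgeR adjusted p = 0.0201) and with scaling by library size alone (-0.82, edgeR adjusted p = 0.0373).

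In the same comparison an unadjusted p under 0.05 was found for 36.5% of all genes, and markers of cell types moved as well. Of the 4 cardiomyocyte markers, Tnnt2, Tnni3 and Actn2 were called higher and Ryr2 lower, and their summed level was 12530 to 14192 CPM in naïve and 17712 to 20718 CPM in high-dose libraries. Of 4 smooth muscle markers 3 were called higher, with sums of 167 to 187 CPM and 235 to 276 CPM. Of 4 fibroblast markers, 1 was called higher and 1 lower, with sums of 961 to 1589 CPM and 921 to 1003 CPM. Of 4 ventricular markers 2 were called higher, no marker of endothelium, blood or leukocytes was called, lung markers were too low to test, and 2 of 3 skeletal muscle markers tested were called lower. The skeletal muscle sum was 27.8 to 49.3 CPM in naïve and 18.4 to 26.9 CPM in high-dose libraries. The part of these in the rise of Myh6 and Myh7 was not tested.

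A further 3 lists of genes around this program were read beside the 6 genes. In high-dose female ventricles the list of companions, other sarcomere and stress genes, had 4 of 12 tested genes called higher and 1 lower, with a median log2 fold change of 0.12 against 0.01 over all genes, of which 12.2% were called higher and 11.4% lower. Of the 4 of smallest p, Actc1, cardiac α-actin (1.14), Myh7b, a further myosin heavy chain (1.14), and Csrp3, a Z-disc protein (0.70), were higher. Xirp2, an actin-binding repeat protein (-0.57), was lower. Of 10 genes for processing and reception of natriuretic peptides, 0 were called higher and 2 lower, Corin, the protease that activates pro-ANP (-0.80), and Prkg1, the cGMP-dependent kinase downstream of the receptors (-0.91). The median of that list was -0.36.

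Regulators were called in both directions. Of 24 tested, 6 were higher and 8 lower in high-dose female ventricles, with a median of -0.21, where 23.7% of all genes were called in either direction, and the lower ones ran from -0.36 for Gata6 to -0.90 for Hdac4. The 4 of smallest p, all higher, were the transcription factors Nkx2-5 (0.80), Hand2 (0.94) and Srf (0.63) and the class II histone deacetylase Hdac5 (0.69). In the other 17 comparisons 0 genes of the 3 lists were called by edgeR, while DESeq2 called 3 tests of the natriuretic list, 5 of the companions and 4 of the regulators. The share of all genes that DESeq2 called over these comparisons is not given, so its counts are not set against genes at large. In edgeR, unadjusted p-values under 0.05 were found in these 17 comparisons in 27 of 170, 21 of 215 and 64 of 408 tests (15.9%, 9.77% and 15.7%). Over all gene tests of these comparisons the edgeR share was 8.16%.

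**Figure D4:**
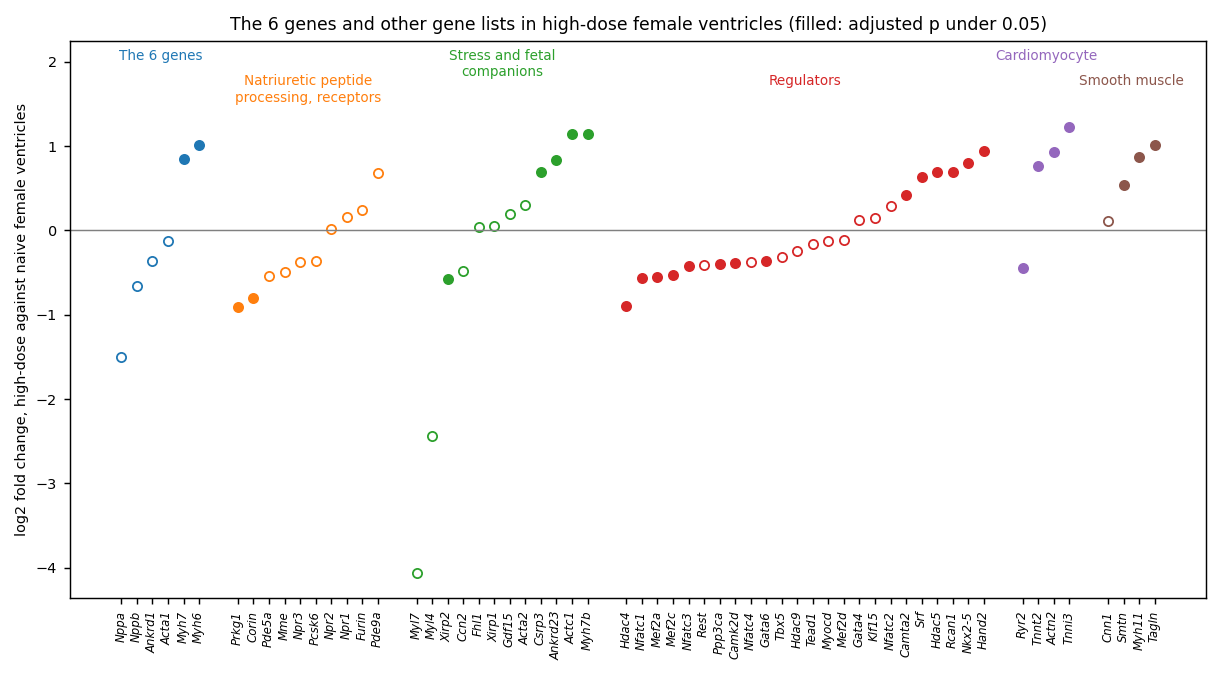
Log2 fold change of the 6 genes, of 3 lists around the hypertrophy program and of cardiomyocyte and smooth muscle markers in high-dose against naïve female ventricles; each circle is a gene and filled circles passed an adjusted p of 0.05. Myh6 and Myh7 lie at 1.01 and 0.85, near the called cardiomyocyte markers, and the atrial genes Myl4 and Myl7 are far below 0 without passing the test. For Myl4 the naïve library 35 held 193 CPM and the other naïve ones 4.23 and 3.14 CPM. High-dose libraries held 3.56, 2.51 and 22.1 CPM of it.

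In males both myosin genes had other values. High-dose male ventricles held 17492, 18055 and 22252 CPM of Myh6 against 12431, 24768 and 19164 CPM in naïve males, and the groups overlapped (log2 fold change 0.04, edgeR adjusted p = 0.979). Myh7 was at 6339, 6101 and 5915 CPM against 31507, 6593 and 6700 CPM, without overlap, at a log2 fold change of -1.31 (SE 0.733, edgeR adjusted p = 0.565). The value of 31507 CPM is that of library 33, and without it the log2 fold change was -0.08. The sex-by-group interaction at the high dose in the ventricles, tested on 12 libraries, was -2.15 for Myh7 (unadjusted p = 0.0182, edgeR adjusted p = 0.952). Library 33 is 1 of the 3 naïve males in that fit. Libraries 53 (naïve, Myh6 19164 and Myh7 6700 CPM) and 65 (high-dose, 22252 and 5915 CPM) are also in it as males. Both are against their labels in sex and in compartment. For Myh6 the interaction was -0.96 (unadjusted p = 0.0725, edgeR adjusted p = 0.952), so that a difference between the sexes was not detected for either gene at this number of libraries.

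The naïve male libraries 1, 17 and 33 stood apart from the other 69 in the balance of the myosins. Myh7 made up 33.3% of Myh6 plus Myh7 counts in library 1 (right atrium), 48.9% in library 17 (left atrium) and 71.7% in library 33 (ventricles), and 17.0% to 27.6% in the other 69, with a median of 23.2%. Only in library 33 did Myh7 exceed Myh6, 2.53 to 1. These libraries also had the highest Myh7 of their compartments, 12216, 12955 and 31507 CPM. Ankrd1, at 6628, 4385 and 4423 CPM, had rank 1, 2 and 1 from the top among the 24 libraries of each compartment. Nppb, at 445, 701 and 487 CPM, had rank 1, 1 and 2, and Acta1, at 12.6, 38.7 and 10.8 CPM, had rank 22, 19 and 24. None of them is among the libraries against their labels, and the labels do not say whether they came from a single heart.

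**Figure D5:**
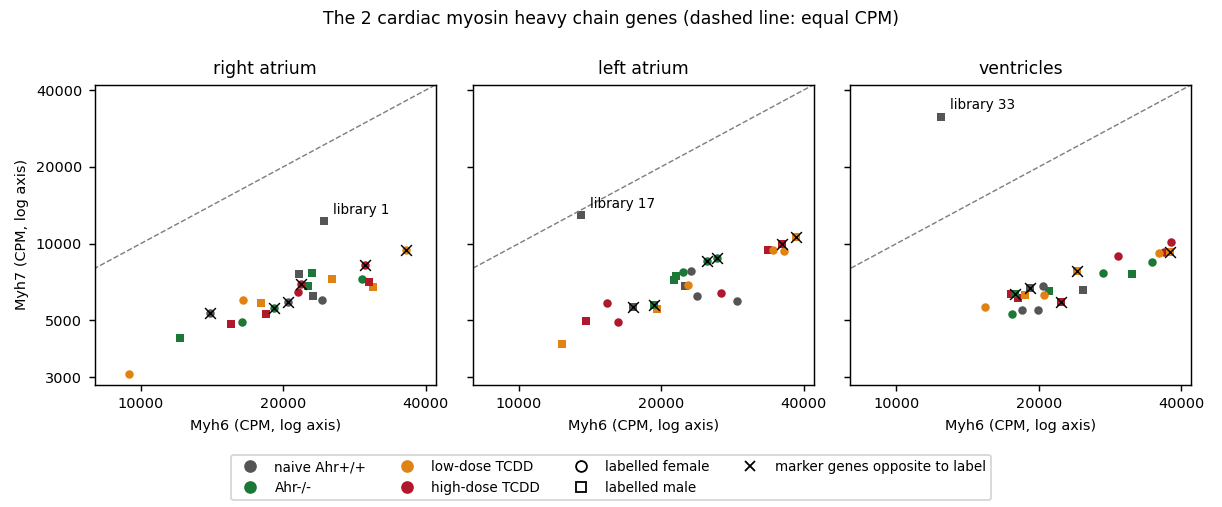
Myh7 against Myh6 in CPM on log axes, 1 panel per compartment, with colours for groups, circles for females and squares for males, crosses for libraries against their label and a dashed line of equal CPM. Libraries 1, 17 and 33, all naïve males, lie above the band of the other libraries, and library 33 alone lies above the line.

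Between groups the balance of the myosins gave no call. The difference in mean log2 ratio of Myh7 to Myh6 from naïve, with sexes permuted apart and 6 libraries against 6, ran from -0.05 in Ahr-/- left atrium to -0.59 in Ahr-/- ventricles. Groups of a compartment share the naïve libraries that hold number 1, 17 or 33. The smallest p was 0.240 in the exact two-sided permutation test (adjusted p = 0.649 over 9 tests), where the design allows 0.005. In Ahr-/- left atrium the difference was 0.22 without library 17, and in the ventricles without library 33 it was -0.08 for Ahr-/-, -0.04 for the high dose and 0 to 2 decimals for the low dose.

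Apart from high-dose female ventricles, the myosin genes reached no unadjusted p under 0.05 in any comparison. Over the other 17, log2 fold changes ran from -0.40 to 0.76 for Myh6 and from -1.31 to 0.48 for Myh7. The 3 lowest values for Myh7 belong to male ventricles (-0.93 at low dose, -1.12 in Ahr-/- and -1.31 at high dose), all set against the naïve group with library 33. Without that library they were 0.34, 0.12 and -0.08.

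The natriuretic peptide genes gave their smallest p-values in right atria of males. Nppa was read at 13264, 10905 and 9739 CPM in naïve males and at 2676, 6937 and 4262 CPM in low-dose males. Every low-dose library lay below every naïve one, and the log2 fold change was -1.26 (SE 0.337, unadjusted p = 0.00418, edgeR adjusted p = 0.941); DESeq2 gave -1.27 with an adjusted p of 0.0475. The same groups did not overlap for Nppb, with 445, 172 and 206 CPM in naïve and 91.0, 145 and 140 CPM in low-dose males, at -1.08 (SE 0.345, unadjusted p = 0.0119, edgeR adjusted p = 0.941). In Ahr-/- males Nppb was 146, 160 and 62.5 CPM, at -1.20 (SE 0.408, unadjusted p = 0.0161, edgeR adjusted p = 0.821). Without library 1 these Nppb values were -0.58 and -0.71. Among all genes 4.41% had an unadjusted p under 0.05 in the low-dose comparison and 5.12% in the Ahr-/- one.

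Acta1, in the same low-dose right atria, was at 266, 116 and 220 CPM against 12.6, 81.4 and 87.1 CPM in naïve males, without overlap, at a log2 fold change of 1.77 (SE 0.722, unadjusted p = 0.0454, edgeR adjusted p = 0.941). Without library 1 it was 1.29. Skeletal muscle markers summed to 121 to 238 CPM in low-dose and 65.5 to 244 CPM in naïve right atria of males, and their part in it was not tested. In the right atrium of males, therefore, 3 of the 6 genes reached an unadjusted p under 0.05 at the low dose and 0 passed the adjusted threshold.

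Nppb in the ventricles of Ahr-/- females was at 65.3, 57.3 and 49.8 CPM, against 97.7, 53.0 and 125 CPM in naïve females. These ranges overlapped, at a log2 fold change of -0.63 (SE 0.280, unadjusted p = 0.0479, edgeR adjusted p = 0.521), and 9.45% of all genes had an unadjusted p under 0.05. Without the naïve library 54 it was -0.25. In the remaining comparisons Nppa and Nppb reached none. The largest values among these were 2.31 for Nppa in low-dose male ventricles, where libraries 46 and 71 are against their label, and -2.02 for Nppb in the left atrium of Ahr-/- males, which was -0.26 without library 17. The value for low-dose male ventricles was 0.81 without library 71, and -0.51 without all libraries against their labels, in a fit of all 4 groups. In that fit library 45 was the only low-dose male ventricle. Low-dose male ventricles held Nppa at 278, 2317 and 7261 CPM, and the latter pair are those libraries. The left atrium of Ahr-/- females had Nppa at 110, 35.3 and 7965 CPM, and libraries 23 and 24 with the low values had Myl4 at the level of ventricles.

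Acta1, the skeletal actin gene, was the gene of the set with the most unadjusted p-values under 0.05 among the male comparisons. In the left atrium it was at 163, 212 and 115 CPM in Ahr-/- males against 38.7, 95.5 and 64.9 CPM in naïve males, without overlap, at a log2 fold change of 1.21 (SE 0.357, unadjusted p = 0.0101, edgeR adjusted p = 0.928). In the ventricles it was at 137, 145 and 106 CPM in Ahr-/- males against 10.8, 57.8 and 77.3 CPM, again without overlap, at 1.51 (SE 0.599, unadjusted p = 0.0373, edgeR adjusted p = 0.827). Leaving out the naïve library 17 or 33 gave 0.90 and 1.04. The left atrial values of 115 and 64.9 CPM are those of libraries 57 and 51. The ventricular values of 106 and 77.3 CPM are those of libraries 59 and 53. All of these libraries are against their label. High-dose male ventricles held 968, 119 and 55.0 CPM, which overlap the naïve range, at 3.10 (SE 1.20, unadjusted p = 0.0352, edgeR adjusted p = 0.525). The value of 968 CPM, in library 41, was the highest of Acta1 in the 72 libraries, and without it the log2 fold change was 0.85. The value of 55.0 CPM is that of library 65, which is against its label. All genes reached an unadjusted p under 0.05 at rates of 3.52%, 4.23% and 9.19% in these comparisons.

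Library 41 also had Nppb at 506 CPM, the highest among ventricles, Nppa at 361 CPM and Ankrd1 at 2440 CPM, the second highest of Ankrd1 in ventricles, while Myh7 made up 26.6% of myosin counts. Library 25, left atrium of a high-dose male, had the highest left atrial Acta1, 514 CPM, and Ankrd1 at 4211 CPM. Skeletal muscle markers summed to 27.2 CPM in library 41, the lowest of the 27.2 to 63.0 CPM of its group. Blood markers summed to 6364 CPM there, the highest of the 24 libraries labelled ventricle (median 1620 CPM), and lung markers to 71.9 CPM in library 25, where the other libraries of its group were at 0 and 0.553 CPM. The part of these in the levels of library 41 and library 25 was not tested. In library 33, the naïve ventricle with the most Myh7, Acta1 was at 10.8 CPM, the lowest of all 72. In library 50, a naïve right atrium, Acta1 was at 339 CPM, the highest of the right atrium, with Myh7 at 27.6% of myosin counts.

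Ankrd1, the stretch-responsive gene, had 1 further unadjusted p under 0.05, in high-dose male right atria. It was at 2296, 1500 and 1390 CPM there and at 6628, 2391 and 2399 CPM in naïve males, without overlap, at a log2 fold change of -1.05 (SE 0.406, unadjusted p = 0.0292, edgeR adjusted p = 0.892), where 5.41% of all genes had an unadjusted p under 0.05. The value of 6628 CPM is that of library 1, and without it the log2 fold change was -0.45. Over the other comparisons, high-dose female ventricles left out, Ankrd1 ran from -0.92 in the right atrium of Ahr-/- males (-0.31 without library 1) to 0.61 in that of low-dose females.

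Differences between females and males in these effects were tested in 9 interaction fits. Of 54 member tests 0 were called by edgeR, with 0% of genes called in each fit, and 3 had an unadjusted p under 0.05 (2.53% of all gene tests did). Beside Myh7 they were Acta1 in the ventricles, at 1.58 for Ahr-/- (unadjusted p = 0.0456) and 3.27 for the high dose (unadjusted p = 0.0331), both higher in males, with adjusted p-values of 1.00 and 0.952. Library 33, with Acta1 at 10.8 CPM, is a naïve male in both fits. Library 41, at 968 CPM, is a high-dose male, and without it the male log2 fold change against naïve went from 3.10 to 0.85. Libraries 53, 59 and 65, used as males in these fits, read as female. In the right atrium and the ventricles 1 sex held a library of opposite sex-linked reading in each group.

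Levels that ran most like those of each gene were listed as the 3 highest Pearson correlations of log2(CPM + 1) over the 72 libraries, among 13951 genes with a mean CPM of at least 1. Many of these libraries share a compartment or a group, and the values describe them only. Nppa ran with Tmem163 (0.979), Pam, an enzyme that amidates peptides (0.972), and Gpx3 (0.971). Nppb and Ankrd1 each had the other as nearest gene (0.821), and both had Synpo2l, a Z-disc protein, next (0.703 and 0.736). Myh6 was nearest to 1700095B10Rik (0.879) and Speg, a kinase of the sarcomere and triad (0.838). For Myh7 and Acta1 the nearest genes were Naca (0.785) and Edn3, which encodes endothelin-3 (0.743).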

How the data were processed

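The deposited table holds raw counts for 24237 Entrez identifiers in 72 libraries. The authors made these counts from 50-base poly(A) reads (CASAVA 1.8, TopHat, mm10), counting reads on coding regions. Annotation release, strand setting and treatment of reads with several matches are not given in the sources used here. Groups came from the library titles. The 6 genes and all gene lists were chosen with earlier results of these data known.

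Genes were kept by edgeR's filterByExpr (minimum count 10, total 15), scaled by TMM and tested with the quasi-likelihood F-test (edgeR 4.0.16, R 4.3.3), 3 libraries against 3, at an adjusted p of 0.05; the study's own methods name DESeq. Standard errors are the fold change divided by the root of F. The step was tested on simulated data. Symbols were matched for 24155 identifiers. CPM use library totals, which set the counting precision. The ratio of Myh7 to Myh6 was compared by exact permutation within sex (Python 3.11.15, numpy 2.4.6). All 6 genes are described, with full statistics where the unadjusted p was under 0.05, and lists are named by their smallest p, at most 4 genes each, apart from Gata6 and Hdac4, which were named after their values were seen. Alternatives were DESeq2 1.42.0, other scalings, filters and sample sets, and leaving out each library. No 2 libraries held identical counts.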

Additional observations from a re-analysis of the deposited data

Results flagged for a closer look

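Libraries of both sexes were joined by compartment and condition, 6 to a group, and the gap of the most extreme library to its neighbour was divided by the range of the group. Of 84 groups examined, 21 exceeded Dixon's limit of 0.625. That limit flags about 1 in 20 where the 6 values are draws from a single normal distribution. Here CPM were not put on a log scale, sexes were joined and some groups held libraries against their labels. The rate of 1 in 20 need not apply to them.

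Naïve male libraries gave 9 of these. Library 33 (ventricles) stood apart for Myh7 (31507 CPM, gap 0.947), Nppb (487 CPM, gap 0.835), Ankrd1 (4423 CPM, gap 0.728) and the log2 ratio of Myh7 to Myh6 (1.34 against -1.91 to -1.52 in the others, gap 0.879). Library 17 (left atrium) stood apart for Nppb (701 CPM, gap 0.876), Myh7 (12955 CPM, gap 0.702) and the same ratio (-0.07 against -2.29 to -1.56, gap 0.673). In library 1 (right atrium) these were Myh7 (12216 CPM, gap 0.667) and Ankrd1 (6628 CPM, gap 0.687).

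High-dose male libraries without a label conflict gave 5. Library 41 (ventricles) had gaps of 0.911 for Acta1 (968 CPM against 35.3 to 119), 0.743 for Nppb (506 CPM) and 0.766 for Ankrd1 (2440 CPM). Library 25 (left atrium) had gaps of 0.638 for Acta1 (514 CPM) and 0.629 for Ankrd1 (4211 CPM).

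Libraries against their labels gave 6. Nppa was far above the other ventricles in library 59 of the Ahr-/- group (772 CPM, gap 0.945), library 65 of the high-dose group (2271 CPM, gap 0.851) and library 71 of the low-dose group (7261 CPM, gap 0.685), all of which carried Myl4 at atrial level. Library 50, a naïve right atrium, had the lowest Myh6 of its group (13989 CPM, gap 0.625) and the highest Acta1 (339 CPM, gap 0.770). Library 57, an Ahr-/- left atrium with Myl4 at ventricular level, had the lowest log2 ratio (-1.75, gap 0.727). The remaining value is Acta1 in library 55, an Ahr-/- right atrium (157 CPM against 28.2 to 66.8, gap 0.700). Causes were not tested.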

How the results depend on the processing

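No analysis paired by heart was possible, because the labels do not tie the libraries of different compartments to a heart. The compartment contrasts therefore treat all libraries as independent. In high-dose female ventricles 2 of the 6 genes were called, and 4 with scaling by library size alone, a setting that moved the median of all genes by -0.17 on the log2 scale. The count was 0 with all 4 groups in one fit, which held no library against its label. The count was also 0 with both sexes in one fit, where Myh7 turned to -0.23, and 0 at an adjusted p of 0.0001. DESeq2 called 1 gene in low-dose male right atria, Nppa. In Ahr-/- female left atria 2 genes, Nppa and Nppb, were called from libraries 1 to 48 only, where both Ahr-/- libraries had Myl4 at ventricular level. Nppa, 1 gene, was called between right atrium and ventricles, and between left atrium and ventricles, without the libraries against their labels and with DESeq2. Shares of all genes called are not given for scaling by library size alone, for libraries 1 to 48 only or without the libraries against their labels. Counts under these settings are therefore not set against genes at large. With each library left out in turn the count for right atrium against ventricles ran from 0 to 1, the latter without library 53. The log2 difference of the myosin ratio in low-dose right atrium turned to 0.0375 without libraries against their labels. Library 3 was then the only naïve female. With each library left out the difference ran from -0.1965 to 0.2169 in Ahr-/- left atrium and from -0.3419 to 0.0715 in high-dose left atrium, the highest values without library 17. No other count of called genes changed by over 1.5 times. Of the 106 tests against naïve that were not called, 56 changed sign with 1 library left out and 48 under another alternative, so the direction of such values depended on the setting. The cause of these changes was not tested. All 6 genes had at least 44 reads in each library. The effect of depth on the calls was not tested.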
